A study of Mus musculus with 2 samples.

Results

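The miR-29 family, the pair of miR-132 and miR-212, miR-137 and miR-138 are miRNAs known from the maturation of neurons, and 9 of their mature arms were examined in the newborn mouse retina. They were miR-29a-3p, miR-29b-3p, miR-29c-3p, miR-132-3p, miR-132-5p, miR-212-5p, miR-212-3p, miR-137-3p and miR-138-5p, 9 of the 1358 miRNAs in the count table. They were picked by name as miRNAs of mature neurons and because their counts in these same libraries were low, without a numerical threshold, so their levels are given as a description and no test of them was made. Small RNA was sequenced from whole retinas taken at postnatal day 0 from mice of the outbred strain CD-1, all wild-type. The series held this 1 group with 2 libraries, replicate 1 and replicate 2, and no treated, older or mutant group. Nothing in the labels says if the replicates are separate animals or litters, or if retinas were pooled, and the spread between them may be technical. Only 1 age was measured, so a rise or fall of these miRNAs with age could not be examined.

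A miRNA is cut from a hairpin precursor as a duplex, of which the 5p strand, the 3p strand or both can be kept, and it recognises target mRNAs mainly through its seed, bases 2 to 8 from the 5′ end. A read that starts a base earlier or later therefore carries a different seed. The miR-29 family is known to increase strongly in the maturing brain and to target DNA methyltransferases, extracellular matrix genes and pro-apoptotic genes. The locus of miR-132 and miR-212 is a target of the transcription factor CREB and is induced by neuronal activity and neurotrophins, miR-137 is known from neuronal differentiation and synapses, and miR-138 from dendritic spines. In whole retina, fewer cells of a type and less RNA per cell cannot be told apart.

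All 9 arms had an entry in the RefSeq miRNA table (GRCm38.p6), and their mature sequences are shown because the family relations and the shifted reads described later depend on single bases. Seeds are in capitals.
miR-29a-3p: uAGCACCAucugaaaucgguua
miR-29b-3p: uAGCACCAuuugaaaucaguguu
miR-29c-3p: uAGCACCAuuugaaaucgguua
miR-132-3p: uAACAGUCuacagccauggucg
miR-212-3p: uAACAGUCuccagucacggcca
miR-132-5p: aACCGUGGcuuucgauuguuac
miR-212-5p: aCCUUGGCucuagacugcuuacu
miR-137-3p: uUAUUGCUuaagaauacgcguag
miR-138-5p: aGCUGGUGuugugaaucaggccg

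Among mouse mature miRNAs in that table, the seed AGCACCA was held only by the 3 miR-29 arms and the seed AACAGUC only by miR-132-3p and miR-212-3p. The seeds of the other 4 arms were held by no other entry. miR-29a-3p and miR-29c-3p differed by a single base (C10U, miR-29a-3p base first, positions counted from 1 at the 5′ end). From miR-29c-3p to miR-29b-3p the changes were G18A, U21G and A22U, all near the 3′ end, where miR-29b is known to carry an element for import into the nucleus. miR-132-3p and miR-212-3p shared 17 of 22 bases and differed by A10C, C14U, U17C, U20C and G22A. G and C made up between 34.8% and 56.5% of the 9 sequences (median 45.5%, against 52.2% for the 1152 listed miRNAs with a RefSeq entry). Adapter ligation differs in yield between sequences, so a difference in level between 2 miRNAs includes the difference in ligation yield.

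The hairpins lay at 6 places in the genome (coordinates and strand from RefSeq, GRCm38.p6; overlapping genes from GENCODE M21). Mir29a (chr6:31062660-31062747, minus strand, outside other annotated genes) and Mir29b-1 (chr6:31063023-31063093, minus strand, in an exon of the lincRNA Gm27019) were 275 bases apart. Mir29b-2 (chr1:195037040-195037120) and Mir29c (chr1:195037547-195037634), both on the plus strand, were 426 bases apart, in exons of the non-coding transcript A330023F24Rik and opposite to exons of Cd46. Mir212 (chr11:75173388-75173478) and Mir132 (chr11:75173682-75173747) were 203 bases apart on the plus strand, in an intron of the non-coding transcript 1700016P03Rik. Mir137 (chr3:118433857-118433929, plus strand) lay in an exon of the non-coding transcript Gm26871. miR-138-5p has 2 hairpins, Mir138-1 (chr9:122682876-122682974, plus strand, in an exon of the transcribed pseudogene Gm47135) and Mir138-2 (chr8:94324311-94324381, plus strand, in an exon of the lincRNA C78859). The counts of miR-29b-3p and miR-138-5p cannot be assigned to either of their 2 hairpins.

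The libraries held 8337902 and 8118208 counts, and 924 miRNAs were detected in both. Levels are CPM, the count scaled to a common table total, so that 1 count was worth 0.12 CPM. A miRNA without a count could have had up to 3 counts, worth 0.36 CPM (replicate 1) or 0.37 CPM (replicate 2). Intervals are exact binomial (Clopper-Pearson) 95% intervals, and, like these limits, they hold counting error alone, because reads amplified by PCR and lacking molecular identifiers do not count molecules independently. Of the markers of the labelled tissue, miR-9-5p of neural cells was at 227200 ± 1685 CPM (SD, n = 2, rank 1). miR-182-5p of photoreceptors and other sensory cells was at 110064 ± 10501 CPM (rank 2). miR-124-3p of neurons was far lower, at 649 ± 73.9 CPM (rank 91), and below the endothelial miR-126a-3p (905 ± 90.9 CPM). Among markers of other cells, the endothelial pair, led by miR-126a-3p, summed to 985 CPM in the first and 854 CPM in the second replicate. The pigment epithelium pair summed to 3789 and 3000 CPM, almost all miR-204-5p, with miR-211-5p at only 5.94 and 5.30 CPM. This sum is thus not an amount of pigment epithelium, and whether the miR-204-5p came from such cells was not tested. The lens and surface epithelium list summed to 860 and 990 CPM, led by miR-184-3p, with miR-205-5p at 0 in both libraries. The skeletal muscle list summed to 88.8 and 92.0 CPM (led by miR-206-3p), the smooth muscle and pericyte list to 59.1 and 66.5 CPM (miR-143-3p), the red blood cell list to 62.1 and 63.6 CPM (miR-486a-5p), the oligodendrocyte list to 7.32 and 4.68 CPM (miR-338-3p) and the leukocyte list to 2.16 and 2.22 CPM (miR-142a-3p), with miR-223-3p and miR-150-5p at 0. The other red blood cell markers were low, with miR-451a at 3 counts in each library and miR-144-3p at 2 and 1. So were the other smooth muscle and pericyte markers, miR-145a-3p (5 and 11 counts) and miR-145a-5p (1 and 2). The part of such other cells in the levels of the neuronal maturation miRNAs was not tested.

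The 9 neuronal maturation miRNAs together held 91.7 CPM in replicate 1 and 81.5 CPM in replicate 2, from 765 and 662 counts. No arm reached 100 CPM, 5 had a mean of 10 CPM or more and 4 were below it. Over all listed miRNAs, 13.3% reached 100 CPM and 26.9% reached 10 CPM, so the arms fell short at 100 CPM but not at 10 CPM. Nothing is read from either difference, since a low level is what the arms were chosen for. Among detected miRNAs the 9 arms were not at the bottom. The median of the 9 arms was 10.2 CPM, against 3.65 CPM for the miRNAs detected in both libraries, and 5 of the 9 lay above that median, at ranks 293 to 362 of 1358.

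miR-138-5p, a miRNA of dendrites that is known to limit spine size, was the highest of the 9. It had 198 counts in replicate 1 and 186 in replicate 2, or 23.7 CPM (95% interval 20.6 to 27.3) and 22.9 CPM (19.7 to 26.5). These intervals overlap almost completely. miR-212-5p followed with 179 and 147 counts (21.5 and 18.1 CPM), miR-132-3p with 151 and 136 counts (18.1 and 16.8 CPM), miR-29a-3p with 99 and 85 counts (11.9 and 10.5 CPM) and miR-132-5p with 89 and 79 counts (10.7 and 9.73 CPM). The remaining 4 arms formed a lower set, each with at most 20 counts in a library.

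In this lower set, miR-29b-3p had 19.5 and 10 counts (2.34 CPM, interval 1.47 to 3.70, and 1.23 CPM, 0.591 to 2.27). miR-29c-3p had 15.5 and 11 counts (1.86 and 1.35 CPM). The counts of both ended in 0.5 in replicate 1, which may reflect reads divided between miRNAs, and the 2 sequences are the same up to base 17. miR-137-3p, known as a brake on polycomb genes and dendrite growth, had 14 and 4 counts, 1.68 CPM (0.918 to 2.82) and 0.493 CPM (0.134 to 1.26). miR-212-3p had no count in replicate 1 and 4 in replicate 2 (0.493 CPM), so it was at or near the limit of detection in both. Leaving out replicate 1 or replicate 2 changed the mean of miR-137-3p from 1.09 to 0.493 or 1.68 CPM. The mean of miR-212-3p changed from 0.246 to 0.493 or 0 CPM. The level of miR-212-3p thus rests on replicate 2 alone, and that of miR-137-3p depends on which library is used.

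**Figure D1:**
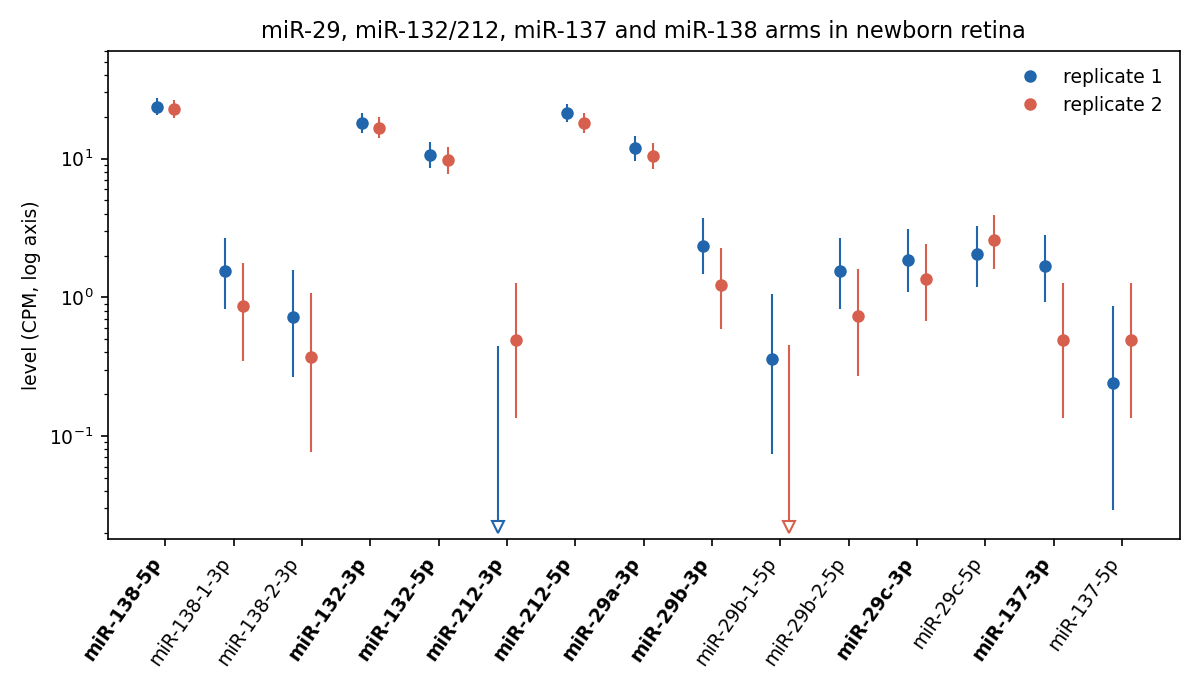
Level in CPM (log axis) of the 9 neuronal maturation miRNAs (bold names) and of the other arms of their hairpins, for replicate 1 and replicate 2 separately, with exact binomial 95% intervals as bars; open triangles at the lower edge mark a count of 0. miR-138-5p, miR-132-3p, miR-132-5p, miR-212-5p and miR-29a-3p sit between 9.73 and 23.7 CPM, and every other arm is below 3 CPM.

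The order of the upper 5 was only partly resolved. Neighbours were taken as apart where the log2 ratio of their counts had the same sign in both libraries and a mean above 2 SD, without a test. miR-138-5p over miR-212-5p had a log2 ratio of 0.15 in replicate 1 and 0.34 in replicate 2 (0.24 ± 0.14, SD, n = 2) and miR-212-5p over miR-132-3p had 0.24 and 0.11 (0.18 ± 0.094), so neither pair was apart. miR-132-3p stood above miR-29a-3p by 1.56-fold (log2 ratio 0.64 ± 0.048). miR-29a-3p over miR-132-5p met the rule at a log2 ratio of 0.13 ± 0.034, but their counting intervals overlapped in each library (9.65 to 14.5 against 8.57 to 13.1 CPM in replicate 1), so this step is not resolved. The gap from miR-132-5p down to miR-29b-3p was 5.82-fold (log2 ratio 2.54 ± 0.54) and met the rule. Below it, no step between neighbours among miR-29b-3p, miR-29c-3p, miR-137-3p and miR-212-3p met the rule. Arms farther apart in this lower set were not compared.

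**Figure D2:**
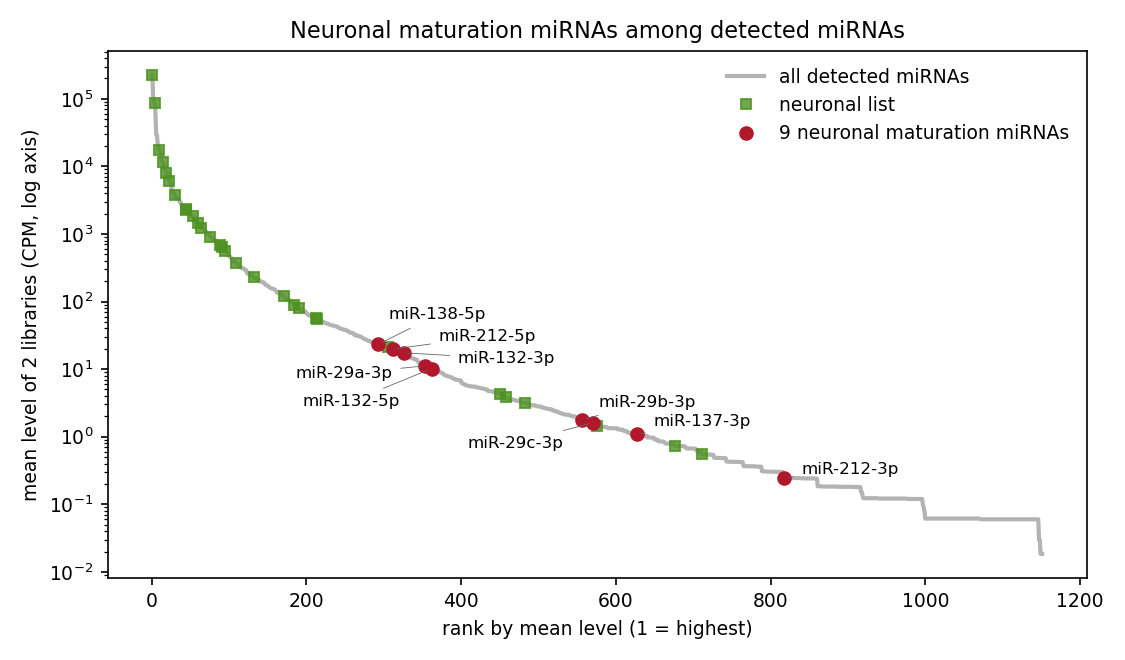
Mean CPM of the 2 libraries (log axis) against rank for all detected miRNAs (grey line), the neuronal list (green squares) and the 9 neuronal maturation miRNAs (red circles). The 9 arms lie at ranks 293 to 818, and 23 of the 30 listed neuronal miRNAs lie above the highest of them, miR-138-5p.

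Most other miRNAs listed as known from neurons were higher in the same libraries. The 9 arms were chosen for a low level and the list with earlier results of these data known. The comparison is therefore a description, and nothing is read from the difference. Beside the 9 arms, 30 arms known from neurons or neural tissue were listed, some of them also common in other tissues, and all 30 were detected in both libraries. Of these, 24 reached 10 CPM, 19 reached 100 CPM and 12 reached 1000 CPM, with a median of 604 CPM. The 5 highest were miR-9-5p, miR-26a-5p (87684 ± 13293 CPM), miR-181a-5p (17710 ± 2269 CPM), miR-7a-5p (11493 ± 1192 CPM) and miR-128-3p (8041 ± 640 CPM). miR-124-3p had 5845 and 4843 counts, 7.47 times the 9 arms together (log2 ratio 2.93 in replicate 1 and 2.87 in replicate 2) and 27.7 times miR-138-5p alone. At the other end, 7 of the 30 were below miR-138-5p. Among them were miR-34a-5p (3.16 ± 0.284 CPM) and miR-338-3p (4.30 ± 1.38 CPM), which is also on the oligodendrocyte list. Also among these 7, miR-129-1-3p (0.734 ± 0.529 CPM) and miR-448-3p (0.549 ± 0.268 CPM) were below 1 CPM. The list as a whole exceeded the 9 arms by a log2 ratio of 12.08 ± 0.068, and by 10.73 ± 0.028 without miR-9-5p. These sums cover unlike numbers of arms and include those also common in other tissues.

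Within the miR-29 family, miR-29a-3p carried most of the counts. It had 99 of the 134 counts of the 3 arms in replicate 1 and 85 of 106 in replicate 2. miR-29a-3p exceeded miR-29b-3p by 6.36-fold (log2 ratio 2.31 and 3.03 in the 2 libraries) and miR-29c-3p by 6.80-fold (2.64 and 2.89). The log2 ratio of miR-29b-3p over miR-29c-3p was 0.32 in replicate 1 and -0.13 in replicate 2, so they were not apart. Mir29a and Mir29b-1 are next to each other on chromosome 6, but miR-29b-3p can also come from Mir29b-2, which lies beside Mir29c on chromosome 1.

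The 5p strands of the miR-29b and miR-29c hairpins had counts of the same size as their 3p guide strands. miR-29c-5p had 17 and 21 counts against 15.5 and 11 for miR-29c-3p, so the 5p share was 52.3% (33.5 to 69.2) in replicate 1 and 65.6% (46.8 to 81.4) in replicate 2. For miR-29b the 5p arms of both hairpins summed to 16 and 6 counts against 19.5 and 10 for miR-29b-3p, a 5p share of 45.1% (27.9 to 61.9) and 37.5% (15.2 to 64.6). All 4 intervals include an even split. Of these 5p counts, 13 and 6 were miR-29b-2-5p, from the hairpin next to Mir29c, and 3 and 0 were miR-29b-1-5p. miR-29a-5p was not analysed here.

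The neighbouring hairpins Mir132 and Mir212 differed in how they used their strands. Mir132 gave both arms, with 151 and 136 counts of miR-132-3p against 89 and 79 of miR-132-5p, so that the 3p arm exceeded the 5p arm by 1.70-fold (log2 ratio 0.76 in replicate 1 and 0.78 in replicate 2). Mir212 gave almost only its 5p arm. In replicate 1 miR-212-5p had 179 counts and miR-212-3p had 0. The exact 95% interval of the arm share put their ratio at 48.0 or more. Against the limit of 3 counts per library for the 3p arm, the 179 counts were 59.7-fold higher. In replicate 2 miR-212-5p was 36.8-fold higher than miR-212-3p (95% interval 14.1 to 137), from 147 against 4 counts. The hairpin totals were closer to each other than the arms, at 240 and 215 counts for Mir132 and 179 and 151 for Mir212 (1.38-fold, log2 ratio 0.47 ± 0.061). miR-212-5p exceeded miR-132-5p by 1.93-fold (log2 ratio 1.00 and 0.89). miR-132-3p thus supplied 151 of 151 and 136 of 140 counts of miR-132-3p and miR-212-3p, which share the annotated seed AACAGUC. How many of these counts are reads that carry this seed is unknown.

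miR-138 was also carried by its 5p arm, and miR-137 had too few counts to say. miR-138-5p made up 91.2% (86.7 to 94.6) of the counts of the miR-138 arms in replicate 1 and 94.9% (90.8 to 97.5) in replicate 2. Of its 3p arms, which tell the 2 hairpins apart, miR-138-1-3p from Mir138-1 had 13 and 7 counts and miR-138-2-3p from Mir138-2 had 6 and 3. miR-137-3p had 14 counts against 2 of miR-137-5p in replicate 1 and 4 against 4 in replicate 2, and the total in replicate 2 was under the minimum of 10 counts. Of the other 5 hairpin groups, miR-212 and miR-138 had at least 4 times as many 5p as 3p counts in both libraries, and miR-132, miR-29b and miR-29c were not dominated by either arm. Over the 312 hairpins with a row for each arm and 10 or more counts per library, 77.2% were dominated by an arm. The 5p arm dominated 40.4% and the 3p arm 36.9%. miR-29b and miR-138, whose copies were summed here, are not among the 312. A low level of the listed arm was part of the choice, so the arm shares are given without a test.

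**Figure D3:**
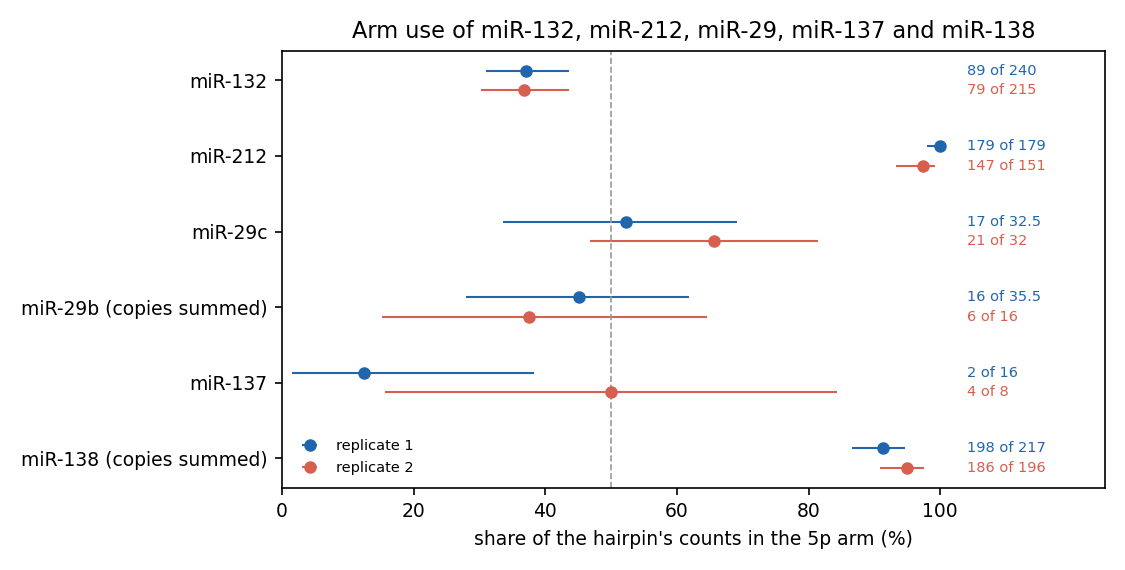
Share of counts in the 5p arm (percent) for each hairpin in replicate 1 and replicate 2, with exact binomial 95% intervals and the counts of the 5p arm out of both arms at the right; for miR-29b and miR-138 the arms of both hairpin copies are summed. miR-212 and miR-138 lie above 91%, miR-132 lies near 37% in both libraries, and the intervals of miR-29b and miR-29c cross 50%.

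The most frequent read gave a further property that the choice of these miRNAs had not used. For miR-29a-3p and miR-29b-3p it began 1 base before the miRBase start in both libraries, which moves the seed from AGCACCA to UAGCACC, a seed that no mature miRNA in the RefSeq table has at its annotated start. miR-29c-3p, which differs from miR-29a-3p by a single base, began at the annotated base in both libraries. The reads are shown with bases 2 to 8 in capitals, followed by the hairpin sequence around the mature start with the first 9 mature bases in capitals.
miR-29a-3p read, both libraries: cTAGCACCatctgaaatcggtt
miR-29b-3p read, replicate 1: cTAGCACCatttgaaatcagtgt
miR-29b-3p read, replicate 2: cTAGCACCatttgaaatcagt
miR-29c-3p read, both libraries: tAGCACCAtttgaaatcggtta
Mir29a hairpin: gaauuuucUAGCACCAU
Mir29b-1 hairpin: ugauugucUAGCACCAU
Mir29b-2 hairpin: uuuguaucUAGCACCAU
Mir29c hairpin: uuuuugucUAGCACCAU

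All 4 hairpins carry C before the mature start, so the added base is present in the precursor, also in Mir29c, where the most frequent read did not include it. The 3′ end of the miR-29b-3p read was 1 base short of the RefSeq end in replicate 1 and 3 bases short in replicate 2, and miR-29a-3p was 1 base short in both. The table gives 1 sequence per miRNA and library without its count, so the share of reads with the earlier start is unknown. For miR-29b-3p and miR-29c-3p each sequence comes from at most 20 counts in a library.

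The reads of miR-132 and miR-212 also departed from the annotation, at both ends of miR-132-5p and at the 3′ ends of miR-132-3p and miR-212-3p. Bases 2 to 8 are in capitals.
miR-132-5p read, both libraries: aCCGTGGCtttcgattgttact
miR-212-5p read, both libraries: aCCTTGGCtctagactgcttact
miR-132-3p read, both libraries: tAACAGTCtacagccatggtcgt
miR-212-3p read, replicate 2: tAACAGTCtccagtcacggc

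miR-132-5p began 1 base after the annotated start and ended 1 base past the RefSeq end. From its annotated start, its seed matched that of miR-212-5p at 2 of 7 bases, and from the start seen in the reads at 6 of 7, with G4U as the difference (miR-132-5p base first, counted from the start of the read). The miR-132-3p read ended with an added U, and the whole read was not found in the Mir132 hairpin. Of 79 miRNAs at 1 to 100 CPM with added 3′ bases in an identical read in both libraries, 49.4% were likewise not found in their RefSeq hairpins. miR-212-5p matched its RefSeq entry at both ends. The miR-212-3p read of replicate 2 ended 2 bases short of its RefSeq entry and rests on at most 4 counts.

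miR-138-5p started at the annotated base and ended 2 bases short of the RefSeq entry in both libraries, and miR-137-3p differed between the libraries. Its read was the annotated sequence in replicate 1 and began 2 bases later in replicate 2, where it rests on at most 4 counts. Of the 8 arms with a read in both libraries, 3 (miR-29a-3p, miR-29b-3p and miR-132-5p) began off the annotated base by the same shift in both, against 14.3% of the 460 miRNAs at 1 to 100 CPM, and 6 had an identical read in both. Among the other arms, miR-29c-5p began 2 bases late in both libraries. With 8 arms, of which miR-29a-3p and miR-29b-3p are close relatives, this share is a description.

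**Figure D4:**
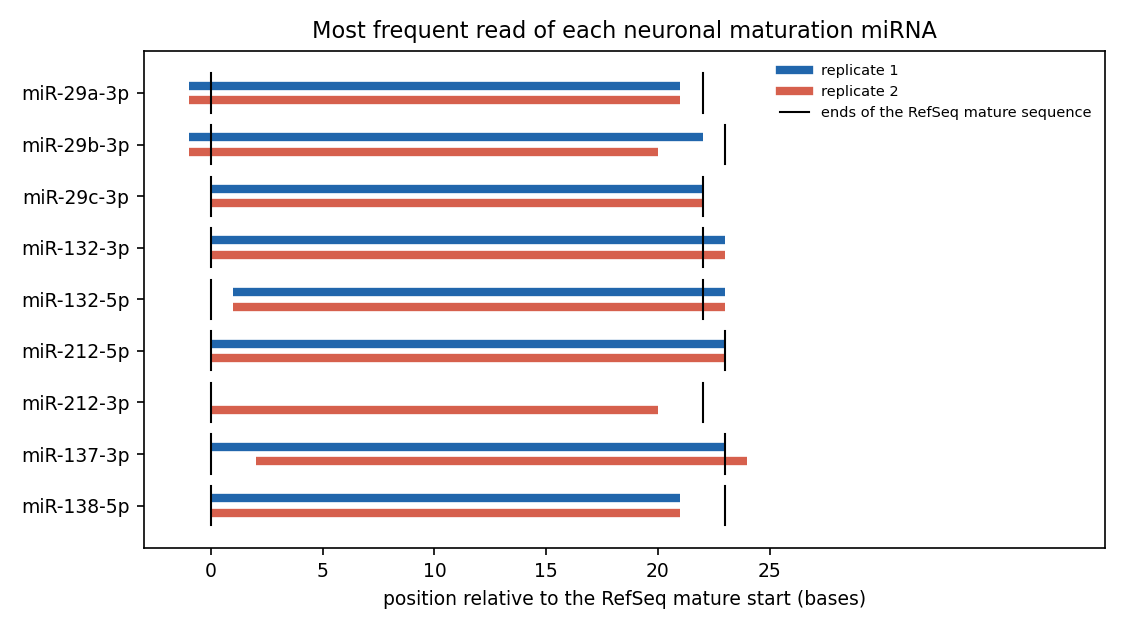
Extent of the most frequent read of each miRNA in replicate 1 and replicate 2 along the RefSeq mature sequence (bases from its start; black ticks mark its ends). The reads of miR-29a-3p and miR-29b-3p begin 1 base early, those of miR-132-5p 1 base late, and miR-212-3p has a read only in replicate 2.

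The 2 libraries gave similar values for the more abundant arms. All miRNAs with a summed count of 10 or more were compared between them with an exact two-sided binomial test and Benjamini-Hochberg adjustment over the 710 miRNAs tested. The test compares 2 libraries of the same group, not conditions. Of the 9 arms, 8 had enough counts and none was called, and 1 (miR-137-3p) had an unadjusted p below 0.05. Over all miRNAs tested 27.9% were called, and among the 335 with total counts in the range of these 8 arms (18 to 384) 5.67% were. The log2 ratio of replicate 2 over replicate 1 was -0.05 for miR-138-5p (adjusted p = 0.891, exact binomial test), -0.11 for miR-132-3p (adjusted p = 0.725), -0.18 for miR-29a-3p (adjusted p = 0.633) and -0.24 for miR-212-5p (adjusted p = 0.304). It was -0.93 for miR-29b-3p (adjusted p = 0.25, exact binomial test) and -1.65 for miR-137-3p (p = 0.0311, adjusted p = 0.0978). Neither was called, which does not show the libraries to be equal for them. All 8 were lower in replicate 2 by table totals, but 6 were with TMM scaling and 7 with DESeq2 size factors, since the scaling itself moved the median log2 ratio over the 710 miRNAs from -0.12 (table totals) to -0.0037 (TMM) or -0.02 (DESeq2).

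**Figure D5:**
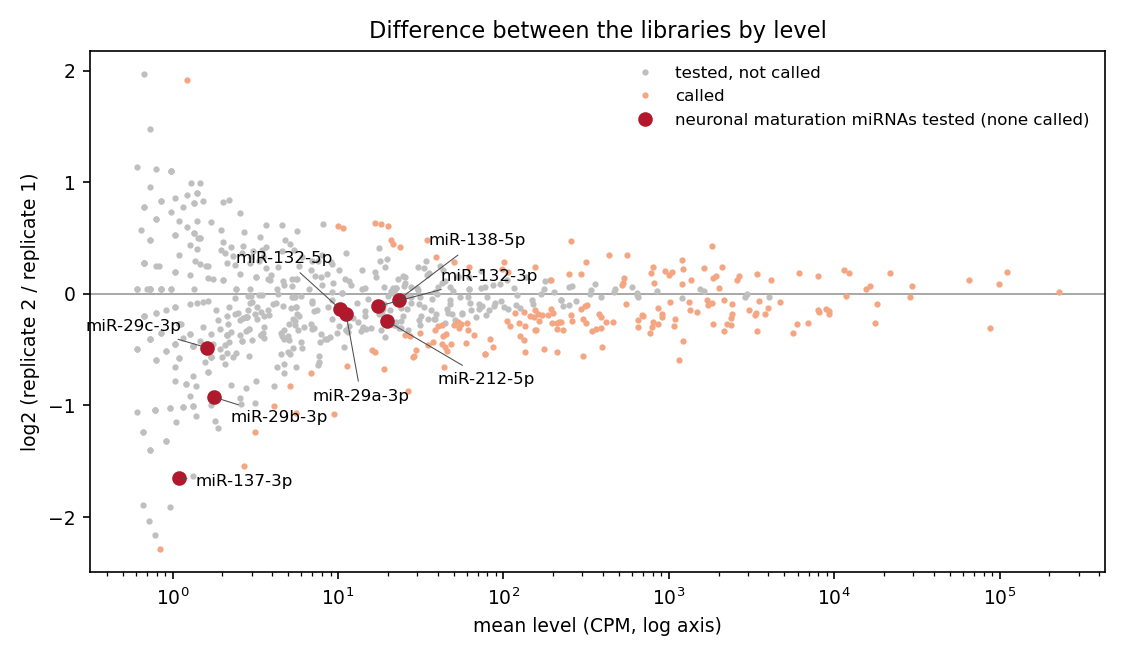
Log2 ratio of replicate 2 over replicate 1 against mean CPM (log axis) for the 710 miRNAs tested, in grey where not called and in orange where called, with the 8 tested neuronal maturation miRNAs in red. The 5 arms near 10 to 23 CPM lie within 0.25 of 0, and miR-137-3p is the farthest at -1.65.

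The miRNA nearest to each arm in level was found by the distance in log2(CPM + 0.5) over the 2 libraries, which describes likeness of level only. For miR-138-5p it was let-7f-2-3p (193 and 183 counts), for miR-212-5p miR-494-3p (180 and 158) and for miR-132-3p miR-191-3p (148 and 133). For miR-132-5p it was miR-3064-5p (93 and 74 counts), and miR-3078-5p and miR-667-5p tied for miR-29a-3p. In the lower set, miR-679-3p was nearest to miR-29b-3p (19 and 9 counts), miR-466k to miR-29c-3p (16 and 12) and miR-5123 to miR-137-3p (13 and 3). For miR-212-3p, 7 miRNAs with the same counts tied, so no neighbour could be named.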

How the data were processed

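Per the labels' protocols, small RNA of 18 to 30 nt was gel-purified from total retinal RNA and ligated into libraries, with a second gel selection of the cDNA. Reads were demultiplexed with bcl2fastq 2.17.1.14, per the submitters' processing notes; how they were aligned and counted, and on which build, is not given in the sources used here. The deposited table of estimated counts held 1 unscaled value per mature miRNA and library, and 6.77% and 5.96% of its values were not whole; counts were rounded for tests, intervals and scaling factors. The deposited CPM table held counts that the authors had scaled by their own library total, and its columns summed to 88.5% of a whole library, so that CPM computed here over the table totals was 1.13 times the deposited value. The third deposited table held the most frequent read of each miRNA, marked against miRBase 21 per the file headers. The meaning of the mark for a missing 5′ base was taken from the sequences, and the marked start matched the start found in the RefSeq hairpin for 591 of 593 reads compared.

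The arms, lists, tests and the rule for named miRNAs were chosen with earlier results of these data known. Named miRNAs were the 9 arms, the other arms of their hairpins, miRNAs sharing a seed and the nearest miRNA in level. From the neuronal list they were the 5 highest and those under 1 CPM, and from each marker list the highest. miR-34a-5p, miR-124-3p and the lower members named from the marker lists were singled out after their values were seen. Ratios within a library used counts plus 0.5. Scaling factors came from edgeR 4.0.16 (TMM) and DESeq2 1.42.0 in R 4.3.3; tests used SciPy 1.17.1 and statsmodels 0.14.6 in Python 3.11.15, tables pandas 2.3.3 and NumPy 2.4.6, and plots matplotlib 3.10.9. Alternatives were other scalings, count filters, an arm threshold of 2-fold, the neuronal list without miR-9-5p and leaving out each replicate.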

Additional observations from a re-analysis of the deposited data

How the results depend on the processing

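The summed level of the 9 arms was 76.65 CPM in the authors' deposited CPM, against 86.6 CPM over the table total, and lay between 81.5 and 91.7 CPM with each replicate left out. Of 18 levels of single arms recomputed with TMM or on the deposited scale, 14 moved by less than the SD of the replicates, and the other 4 moved on the deposited scale. Leaving out a replicate moved the level of a single arm by up to 2.20-fold (miR-137-3p, 0.493 CPM without replicate 1 against 1.09 CPM), leaving aside miR-212-3p, which was 0 in replicate 1. The log2 ratio of the neuronal list over the 9 arms was 10.735 without miR-9-5p and between 12.03 and 12.13 with each replicate left out. None of the arms was called between the libraries with TMM factors, DESeq2 size factors, no count filter or a minimum of 50 counts. The number of hairpin groups dominated by an arm stayed at 2 with a 2-fold threshold or a minimum of 30 counts, and was 2 to 3 with each replicate left out, the third being miR-137 in replicate 1 alone. Counts of at most 20 limit what can be said of miR-29b-3p, miR-29c-3p, miR-137-3p and miR-212-3p. No paired analysis was possible because the series holds 1 group.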
